A study of Mus musculus with 4 samples.

Results

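The heat shock proteins (HSPs) and DnaJ chaperones of the mouse were examined for RNA polymerase II (Pol II) occupancy in brain endothelial cells (ECs). The members were the protein-coding genes of the mm10 annotation whose symbols begin with Hsp90, Hspa, Hspb, Hspd, Hspe, Hsph, Dnaja, Dnajb or Dnajc followed by a number, and they came to 72 of 21951 protein-coding genes. The rule reads gene symbols and no Pol II value. They comprise 3 Hsp90 genes, 14 genes of the Hsp70 and Hsp110 families, 2 genes of the mitochondrial chaperonin, 8 genes named as small heat shock proteins (Hspb), and 4, 13 and 28 genes of DnaJ classes A, B and C.

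Chaperones bind unfolded or newly made proteins and keep them from aggregating. Hsp70 proteins do so in cycles of ATP hydrolysis that DnaJ proteins start, Hsp110 proteins release the spent nucleotide, and Hsp90 proteins act on folding intermediates of kinases and receptors. Many members are induced when heat shock factor 1 (Hsf1) binds heat shock elements, inverted repeats of the unit GAA, in their promoters, and others respond to unfolded protein in the endoplasmic reticulum (ER). At several HSP genes Pol II is known to pause just downstream of the transcription start site (TSS) before it is released into the gene.

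Pol II chromatin immunoprecipitation sequencing was compared between old WT Cre mice, aged 20 to 23 mo, and young EC-K4KO mice, aged 4 to 6 mo, with 2 libraries in each group. WT Cre mice carried the tamoxifen-inducible Cre driven by the promoter of Cdh5, the VE-cadherin gene, and EC-K4KO mice lacked Klf4 in ECs through the same Cre and a floxed Klf4 allele. Both groups received tamoxifen at 8 wk of age. Each library was made from 200000 flow-sorted brain ECs, and the labels do not say how many animals a library held, so the spread between libraries of a group may be partly technical. Age and genotype changed together between these groups and cannot be told apart.

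The libraries held 22705175 to 65734178 fragments, and their peak lists held 35638 to 235591 peaks. Young EC-K4KO 2 stood apart, with the fewest fragments and the most peaks, so counts of genes with a peak are read against the share of all genes in the same library. At Klf4, the targeted gene, the young EC-K4KO libraries each held a peak near the promoter, at fold enrichments of 4.20 and 4.17, and the old WT Cre libraries had none. Such a peak does not measure the Klf4 transcript. Of 10 endothelial marker genes, 3 and 4 had a promoter peak in old WT Cre 1 and 2, while 0 and 6 did so for young EC-K4KO. Kdr, Flt1 and Cdh5 had one in every library but young EC-K4KO 1, while Pecam1, Tek, Tie1 and Esam, 4 of the 10, had none in any library, against 25.4% of all genes. Of 28 markers of pericytes, microglia, astrocytes, neurons and oligodendrocytes, 9, 3, 3 and 19 had a promoter peak in the same order. Over all protein-coding genes the shares were 25.6%, 24.5%, 10.6% and 67.5%. Endothelial markers lay above all genes in old WT Cre 1 and 2 and below them in young EC-K4KO 1 and 2. The shares of the 28 other markers were 32.1%, 10.7%, 10.7% and 67.9%. These lay above all genes in old WT Cre 1, below them in old WT Cre 2 and close to them for young EC-K4KO. The endothelial counts rest on 10 genes, so they do not rank the libraries by endothelial content. The part of other cells in the values below was not tested.

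Promoter peaks were more frequent at HSP and DnaJ genes than over all protein-coding genes in each of the 4 libraries. A promoter peak is a deposited peak that overlaps the 1500 bp on either side of any annotated TSS of the gene. Promoter peaks of a gene in different libraries need not overlap each other. In old WT Cre 1, 24 of 72 members (33.3%) had a promoter peak, against 25.6% of all protein-coding genes. In old WT Cre 2, 26 members (36.1%) had one, against 24.5% of all genes. Young EC-K4KO 1 gave the lowest counts, with 11 members (15.3%) against 10.6% of all genes. Young EC-K4KO 2 gave the highest, with 64 members (88.9%) against 67.5% of all genes.

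Gene length moved these differences little. The median length was 17952 bp for the members and 17403 bp for all protein-coding genes. When the share over all genes was reweighted to the members' gene-length deciles it became 25.1% and 23.8% in old WT Cre 1 and 2, and 10.3% and 67.1% in young EC-K4KO 1 and 2. The members therefore lay above their length-standardised share by 8.23 and 12.3 percentage points in old WT Cre, and by 4.93 and 21.8 points for young EC-K4KO. The mean over the 4 libraries was 11.8 ± 7.32 points (SD, n = 4). This is a description, since genes are not replicates of a library.

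**Figure D1:**
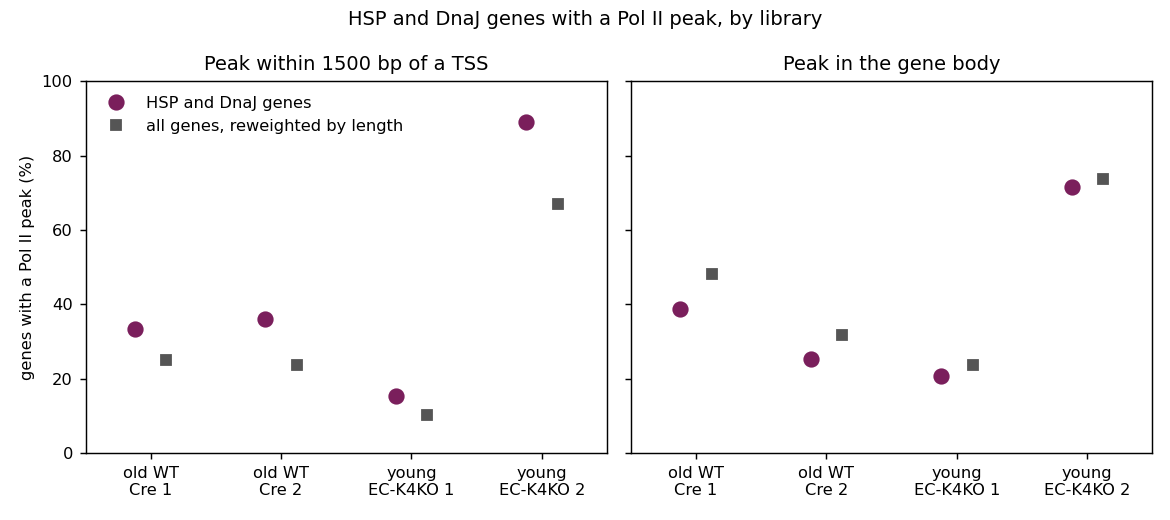
Percent of genes with a Pol II peak (vertical axis) in each of the 4 libraries (horizontal axis), near a TSS (left) and in the gene body (right). Circles are the HSP and DnaJ genes and squares all protein-coding genes reweighted to the same lengths. The circles lie above the squares at promoters by 4.93 to 21.8 points and below them in gene bodies (-9.48 to -2.15 points).

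The members' promoters were richer in CpG dinucleotides than most. The median ratio of observed to expected CpG at the most 5-prime TSS was 0.777 for the members and 0.552 for all genes, and 40 of the 72 (55.6%) fell in the highest tercile of all genes, which holds 33.3%. With reweighting by length quintile and CpG tercile together, the differences shrank to 4.77, 6.82, 3.66 and 12.5 points in old WT Cre 1 and 2 and young EC-K4KO 1 and 2. Many members also share their promoter window with a neighbour. Only 50 of 72 windows (69.4%) overlapped no window of another protein-coding gene, against 84.6% over all genes. Among those 50 genes the difference was -0.288 points in old WT Cre 1, so it turned direction there, and 11.6, 6.28 and 22.7 points in the other libraries. With each list shortened to its 35638 strongest peaks, 13, 25, 11 and 30 members kept a promoter peak, and the differences were 6.50, 12.7, 4.93 and 14.2 points.

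The old WT Cre and young EC-K4KO libraries did not separate in the members' promoter share. The difference from the length-standardised share averaged 10.3 ± 2.90 points in old WT Cre and 13.4 ± 11.9 points in young EC-K4KO (SD, n = 2 each). Old minus young was -3.10 points, which is inside the replicate spread (exact permutation of the libraries, two-sided, p = 1.0). With 2 libraries a side the test cannot go below 0.3333. Without young EC-K4KO 2 it turned to 5.35 points, and with lists of equal length to 0.0189 points. Without young EC-K4KO 1 it was -11.5 points, which sets old WT Cre against young EC-K4KO 2 alone, and with a q-value of at most 1e-05 it was -8.91 points (exact permutation test, p = 1.0).

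A promoter peak in 1 of the 4 libraries was found for 26 members (36.1%), against 36.2% of all genes, and in 2 libraries for 25 members (34.7%), against 25.2%. A promoter peak in no library was found for 6 members (8.33%), against 25.4% of all genes. These were Dnajb8, Dnajb13, Dnajb14, Dnajc4, Hspa1l and Hspb7. Both old WT Cre libraries had a promoter peak at 11 members (15.3%), against 10.1% of all genes. Both young EC-K4KO libraries had one at 10 members (13.9%), against 9.14%. All 4 libraries had one at 4 members (5.56%), against 2.22% of all genes. A promoter peak in old WT Cre 1 and 2 but in no young EC-K4KO library occurred at 0 members, against 0.784% of all genes. The opposite pattern, young EC-K4KO 1 and 2 but no old WT Cre library, occurred at 2 members (2.78%), Hsp90ab1 and Hspb11, against 3.12% of all genes. Young EC-K4KO 2 alone had the promoter peak of 24 members (33.3%), against 30.5% of all genes, so these last patterns were about as frequent among the members as elsewhere.

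**Figure D2:**
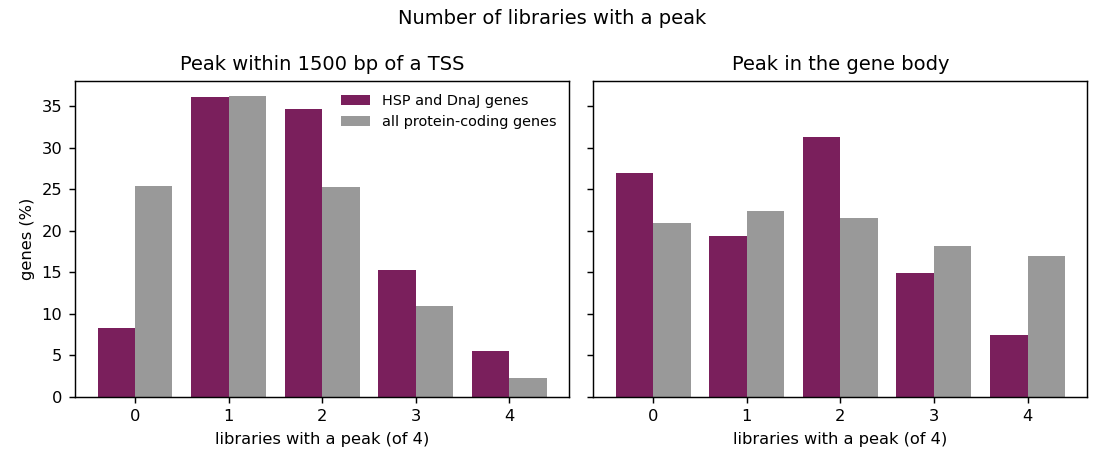
Percent of genes (vertical axis) by the number of the 4 libraries with a Pol II peak (horizontal axis), near a TSS (left) and in the gene body (right). Dark bars are the HSP and DnaJ genes and grey bars all protein-coding genes. At promoters the members with a peak in no library come to 8.33% against 25.4%, and in gene bodies those with a peak in all 4 come to 7.46% against 17.0%, or 11.9% once all genes are reweighted by gene-body length, which the bars are not.

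The mitochondrial chaperone genes Hspd1, Hspe1 and Hspa9 had a promoter peak in all 4 libraries at the deposited q-value limit of 0.01. With a q-value of at most 1e-05 no member did, and with a fold enrichment of at least 4 only Hspa2 did. Hspd1, which encodes the chaperonin Hsp60, and Hspe1, which encodes its lid Hsp10, stand head to head on chromosome 1 (GRCm38, 55077835 to 55088243 on the minus strand and 55088132 to 55091307 on the plus strand). Their windows overlap, so the same peaks count for both. The strongest peak there had a fold enrichment over local background of 4.32 in old WT Cre 1, 5.94 in old WT Cre 2, 3.79 in young EC-K4KO 1 and 8.58 in young EC-K4KO 2. That of old WT Cre 2 overlapped only the long peak of young EC-K4KO 2. Young EC-K4KO 1 was lowest, at the 18.3th percentile of the genes with a promoter peak in that library, and young EC-K4KO 2 highest, at the 92.4th. The pileups behind these peaks were 22, 16, 11 and 31 fragments, and the exact 95% Poisson interval of the first, which covers counting error only, ran from 13.8 to 33.3 fragments. The groups overlap. RefSeq gives Hspd1 more than 1 start, and both promoters are shown because peaks fell on them unequally: the first overlapped a peak only in old WT Cre 2 and, with its long peak, young EC-K4KO 2, and the second in all 4 libraries. Capitals mark 3 overlapping pairs of heat shock element units in the first and a CCAAT box, read on the other strand, in the second.
Hspd1 (chr1:55087883-55088182, minus strand): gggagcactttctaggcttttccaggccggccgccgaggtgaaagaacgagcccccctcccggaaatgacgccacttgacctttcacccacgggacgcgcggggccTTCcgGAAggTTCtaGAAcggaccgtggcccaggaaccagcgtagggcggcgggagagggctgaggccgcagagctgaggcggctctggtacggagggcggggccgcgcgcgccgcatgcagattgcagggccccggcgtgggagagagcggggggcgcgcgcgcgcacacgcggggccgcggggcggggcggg
Hspd1 (chr1:55088194-55088493, minus strand): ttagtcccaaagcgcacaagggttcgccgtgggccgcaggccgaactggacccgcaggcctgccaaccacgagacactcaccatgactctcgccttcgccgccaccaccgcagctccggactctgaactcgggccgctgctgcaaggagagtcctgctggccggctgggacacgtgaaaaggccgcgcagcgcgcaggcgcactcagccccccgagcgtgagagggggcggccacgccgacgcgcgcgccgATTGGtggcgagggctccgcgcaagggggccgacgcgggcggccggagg
Hspa9 encodes the mitochondrial Hsp70 known as mortalin. The fold enrichments of its strongest peaks were 3.0 and 7.83 in old WT Cre 1 and 2 and 4.13 and 8.71 in young EC-K4KO 1 and 2. Their summits lay at 143, -100, -493 and -78 bp from the TSS in the same order, negative being upstream. The peak of young EC-K4KO 1 overlapped none of the others, so these values do not describe a single recurring peak. Within each group the libraries differed more than the groups did, from the 5.34th percentile in old WT Cre 1 to the 96.7th in old WT Cre 2.

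Among the cytosolic and nuclear Hsp70 genes, Hspa2, a testis-enriched Hsp70, was the remaining member with a promoter peak in all 4 libraries. Its fold enrichments were 5.35 and 4.18 in old WT Cre 1 and 2 and 4.62 and 6.14 in young EC-K4KO 1 and 2, again with overlapping groups. The summits lay in exon sequence 341 to 912 bp downstream of the nearest TSS, and the RefSeq promoter itself overlapped a peak in old WT Cre 1 only. That promoter is shown, with its CCAAT box in capitals and no pair of heat shock element units.
Hspa2 (chr12:76404120-76404419, plus strand): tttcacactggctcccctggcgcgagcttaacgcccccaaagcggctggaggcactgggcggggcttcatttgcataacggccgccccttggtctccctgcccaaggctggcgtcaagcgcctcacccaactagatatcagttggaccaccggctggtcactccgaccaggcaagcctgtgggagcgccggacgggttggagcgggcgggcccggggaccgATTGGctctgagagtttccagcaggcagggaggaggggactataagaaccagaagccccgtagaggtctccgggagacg
Hspa8, the constitutive Hsc70, had a promoter peak in old WT Cre 2, at a fold enrichment of 6.0, and in young EC-K4KO 2, at 8.22. Their summits lay at -878 and 110 bp from the nearest TSS, where negative is upstream. Hspa1a and Hspa1b, the classical heat-inducible Hsp70 genes, had a promoter peak in young EC-K4KO 2 only, at fold enrichments of 3.99 and 2.82. The Hspa1b peak stood at the 1.00th percentile of that library and the Hspa1a peak at the 32.0th, with its summit 1233 bp into the gene. The genes are near copies of each other. Their RefSeq promoters, shown with the heat shock element pair in capitals, differ at 4 of 300 bases.
Hspa1a (chr17:34972107-34972406, minus strand): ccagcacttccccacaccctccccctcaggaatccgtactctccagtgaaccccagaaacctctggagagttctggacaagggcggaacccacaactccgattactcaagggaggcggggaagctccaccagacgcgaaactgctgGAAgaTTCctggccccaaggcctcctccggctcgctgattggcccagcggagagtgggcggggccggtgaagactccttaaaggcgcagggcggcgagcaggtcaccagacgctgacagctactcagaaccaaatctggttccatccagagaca
Hspa1b (chr17:34959189-34959488, minus strand): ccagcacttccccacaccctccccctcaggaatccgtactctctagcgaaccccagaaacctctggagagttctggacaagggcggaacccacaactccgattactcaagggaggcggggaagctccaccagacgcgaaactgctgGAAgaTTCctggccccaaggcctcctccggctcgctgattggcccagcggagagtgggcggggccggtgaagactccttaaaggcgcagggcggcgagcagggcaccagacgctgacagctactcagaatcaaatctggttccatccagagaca
Only 47.4% and 49.0% of the 31-base words in the promoter windows of Hspa1a and Hspa1b occur once in the genome, against a median of 97.4% over the 72 members. Reads from these windows can map to either copy, so the calls at both genes are uncertain. Hspa1l, their testis-expressed neighbour, whose window overlaps that of Hspa1a, had no promoter peak, and 62.9% of its words were unique. Hspb1 and Hspb3 were the other members under 80%, at 65.2% and 74.3%.

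Hsph1, an Hsp110 gene that serves as nucleotide exchange factor of Hsp70, had a promoter peak at a fold enrichment of 4.51 in old WT Cre 1 and of 7.05 in young EC-K4KO 2, and none in the other 2 libraries. Both summits lay downstream of the TSS, by 111 and 321 bp. No library had a peak on the 300 bases of its RefSeq promoter, which holds 3 pairs of heat shock element units, in capitals.
Hsph1 (chr5:149636266-149636565, minus strand): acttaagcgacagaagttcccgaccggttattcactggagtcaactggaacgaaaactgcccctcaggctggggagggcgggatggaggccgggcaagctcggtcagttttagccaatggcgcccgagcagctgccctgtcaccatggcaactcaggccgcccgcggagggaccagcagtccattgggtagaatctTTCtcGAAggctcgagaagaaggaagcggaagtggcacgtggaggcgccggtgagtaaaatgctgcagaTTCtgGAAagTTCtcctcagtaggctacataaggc
Hspa4, a further Hsp110 gene, had a promoter peak in young EC-K4KO 2 only. Hspa12b, an atypical Hsp70 known from endothelium, had one in old WT Cre 1 and in both young EC-K4KO libraries, at fold enrichments of 4.02, 4.06 and 4.12. Their summits lay at -856, -1234 and 362 bp from the nearest TSS, and these strongest peaks did not overlap each other. They ranked at the 65.4th, 58.3th and 15.5th percentile of their libraries.

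Of the Hsp90 genes, Hsp90ab1, the constitutive cytosolic form, had promoter peaks called in the knockout libraries alone. The fold enrichment was 4.65 in young EC-K4KO 1 and 8.60 in young EC-K4KO 2. The summits lay just upstream, at -91 and -74 bp from the TSS, with 23 and 40 fragments, and these peaks ranked at the 88.0th and 97th percentile of their libraries. It was the highest ranked member of young EC-K4KO 1. Hsp90aa1, the inducible cytosolic form, had a promoter peak in young EC-K4KO 2 only, at a fold enrichment of 5.51. Hsp90b1, the ER form called Grp94, had a promoter peak in old WT Cre 1, at 3.76, and in young EC-K4KO 2, at 7.04, and none in the other 2 libraries. The summits of this pair lay 622 and 615 bp downstream of the TSS. Its window overlaps that of Ttc41, so these peaks cannot be given to either gene alone.

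Further members act in the ER. Hspa5, the ER Hsp70 called BiP, had promoter peaks in young EC-K4KO 2 only, the strongest at a fold enrichment of 5.60 with its summit at -359 bp. Dnajb9, a DnaJ protein of the ER, had a promoter peak at 4.70 in old WT Cre 1, 4.78 in young EC-K4KO 1 and 9.48 in young EC-K4KO 2. Dnajc10, an ER reductase with a J domain, had a promoter peak at 4.10 in old WT Cre 2. That in young EC-K4KO 2 reached 13.8 and was the highest fold enrichment of any member. The ER stress element joins CCAAT and CCACG over a gap of 9 bases, and 3 members matched it: Hspa5, Hsp90b1 and Dnajc3. The promoters of Hspa5 and Hsp90b1 are shown with this element in capitals, once and 2 times. Each overlapped a peak in young EC-K4KO 2 only.
Hspa5 (chr2:34771840-34772139, plus strand): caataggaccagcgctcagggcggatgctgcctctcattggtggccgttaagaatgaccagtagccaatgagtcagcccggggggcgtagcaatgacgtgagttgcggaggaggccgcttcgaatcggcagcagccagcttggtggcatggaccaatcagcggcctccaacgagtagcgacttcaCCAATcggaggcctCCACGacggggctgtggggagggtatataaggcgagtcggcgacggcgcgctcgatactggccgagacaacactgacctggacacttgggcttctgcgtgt
Hsp90b1 (chr10:86705395-86705694, minus strand): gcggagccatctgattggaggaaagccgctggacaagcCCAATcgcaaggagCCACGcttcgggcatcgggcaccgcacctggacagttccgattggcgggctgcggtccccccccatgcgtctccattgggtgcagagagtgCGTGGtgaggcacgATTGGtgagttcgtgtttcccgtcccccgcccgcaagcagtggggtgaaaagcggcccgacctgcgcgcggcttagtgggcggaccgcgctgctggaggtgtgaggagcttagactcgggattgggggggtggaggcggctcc

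Small heat shock proteins hold unfolded protein without ATP. Of 8 genes with an Hspb symbol, 3, 1, 1 and 6 had a promoter peak in old WT Cre 1 and 2 and young EC-K4KO 1 and 2 (37.5%, 12.5%, 12.5% and 75%), against 25.6%, 24.5%, 10.6% and 67.5% of all genes. Hspb1, which encodes Hsp25 and is known for its role at actin filaments, had a promoter peak in young EC-K4KO 2 only, at a fold enrichment of 4.47 with its summit 451 bp downstream. Its promoter, with 2 pairs of heat shock element units in capitals, overlapped no peak.
Hspb1 (chr5:135887669-135887968, plus strand): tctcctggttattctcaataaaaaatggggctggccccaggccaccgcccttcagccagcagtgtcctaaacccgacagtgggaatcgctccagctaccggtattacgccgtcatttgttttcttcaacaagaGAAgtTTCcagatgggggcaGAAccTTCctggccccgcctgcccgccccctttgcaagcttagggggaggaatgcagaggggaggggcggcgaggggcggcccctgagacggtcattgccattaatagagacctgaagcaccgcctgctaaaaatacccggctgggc
Hspb11, which encodes a protein of intraflagellar transport rather than a small heat shock protein of this kind, was the 1 gene of the 8 with a promoter peak in young EC-K4KO 1. It likewise had promoter peaks called in the knockout libraries alone, at fold enrichments of 4.14 and 6.51. Its window overlaps that of Lrrc42, so the peaks cannot be given to either gene alone. Hspb2 had promoter peaks in 3 libraries, at 4.13 and 4.93 in old WT Cre 1 and 2 as well as 4.96 in young EC-K4KO 2, and it shares its window with the crystallin gene Cryab. Hspb6, whose window overlaps that of Proser3, had a promoter peak in old WT Cre 1 only.

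DnaJ class A proteins are close partners of cytosolic and mitochondrial Hsp70. All 4 of their genes had a promoter peak in replicate 2 of each group, while 1 had it in old WT Cre 1 and 2 had it in young EC-K4KO 1. Over all genes the replicate 2 libraries gave 24.5% and 67.5%, and the replicate 1 libraries 25.6% and 10.6%. Dnaja1 had fold enrichments of 4.47 in old WT Cre 2, 5.04 in young EC-K4KO 1 and 8.40 in young EC-K4KO 2, and no promoter peak in old WT Cre 1. Its value was the highest fold enrichment of a member in young EC-K4KO 1. Of 13 class B genes, 6 and 2 had a promoter peak in the old WT Cre pair, and 2 and 9 in the young EC-K4KO pair. Their shares were 46.2%, 15.4%, 15.4% and 69.2%, against 25.6%, 24.5%, 10.6% and 67.5% of all genes, and young EC-K4KO 2 was thus close to the share of all genes. Dnajb1, the main DnaJ partner of cytosolic Hsp70 in the heat shock response, had a promoter peak in young EC-K4KO 2 only, at a fold enrichment of 5.23, with 30 fragments and its summit at -28 bp. Dnajb7 was the only member with its promoter peak in young EC-K4KO 1 alone.

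Class C proteins share only the J domain and act at many sites, from clathrin uncoating to synaptic vesicles. Of 28 class C genes, 6 and 13 had a promoter peak in old WT Cre 1 and 2, while young EC-K4KO 1 had 0 and young EC-K4KO 2 had 27. These shares of 21.4%, 46.4%, 0% and 96.4% stood against 25.6%, 24.5%, 10.6% and 67.5% of all genes, so that class C lay below all genes in replicate 1 of each group and above them in replicate 2. Dnajc4 was the class C gene without one in young EC-K4KO 2. A count of 0 here means no peak past the q-value limit of that list, which does not show that Pol II was absent. The absence of class C genes from young EC-K4KO 1 stood beside 11 promoter peaks among the other 44 members, and the difference between classes was not tested.

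**Figure D3:**
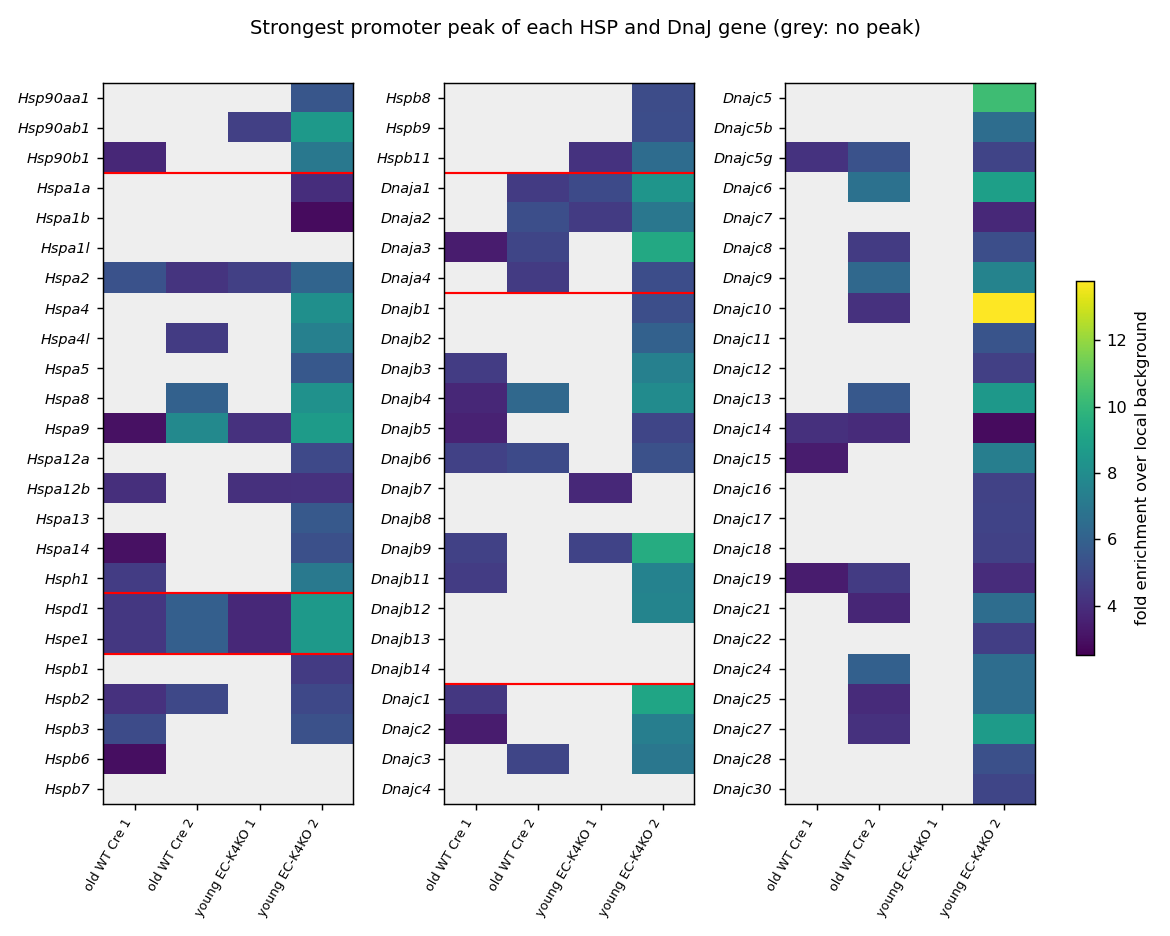
Fold enrichment over local background of the strongest promoter peak (colour) for each of the 72 genes (rows) in each of the 4 libraries (columns), with grey for no peak and red lines between families in the order Hsp90, Hsp70 and Hsp110, mitochondrial chaperonin, small heat shock proteins, and DnaJ classes A, B and C. The column of young EC-K4KO 2 is filled at 64 genes and that of young EC-K4KO 1 at 11, none of them in class C.

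The heights of promoter peaks at members were near those of other genes with a promoter peak. Genes with a peak were ranked in each library by the −log10 q-value of their strongest promoter peak. The median member stood at the 60.9th and 45.8th percentile in old WT Cre 1 and 2 and at the 51.2th and 56.3th in young EC-K4KO 1 and 2. The median fold enrichments of members were 4.09, 4.89, 4.14 and 6.33, against 3.94, 5.0, 4.16 and 5.81 over all genes with a promoter peak. Members with the highest rank were Hspa2 in old WT Cre 1 (91.8th percentile), Hspa9 in old WT Cre 2 (96.7th), Hsp90ab1 in young EC-K4KO 1 (88.0th) and Dnajc10 in young EC-K4KO 2 (98.5th).

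Summits were not gathered at the first 300 bp of the transcript, where paused Pol II is expected, more than at other genes. The share of members' summits from the TSS to 300 bp downstream was 29.2% and 34.6% for old WT Cre and 18.2% and 26.6% for young EC-K4KO. Over all genes with a promoter peak it was 29.4%, 37.1%, 26.6% and 32.0%. The median distance of the summit from the nearest TSS was 380, 301, 273 and 254 bp for the members, against 368, 268, 330 and 277 bp. In young EC-K4KO 1, 7 of 11 summits lay upstream (63.6%), against 43.5% over all genes, and this rests on few genes.

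**Figure D4:**
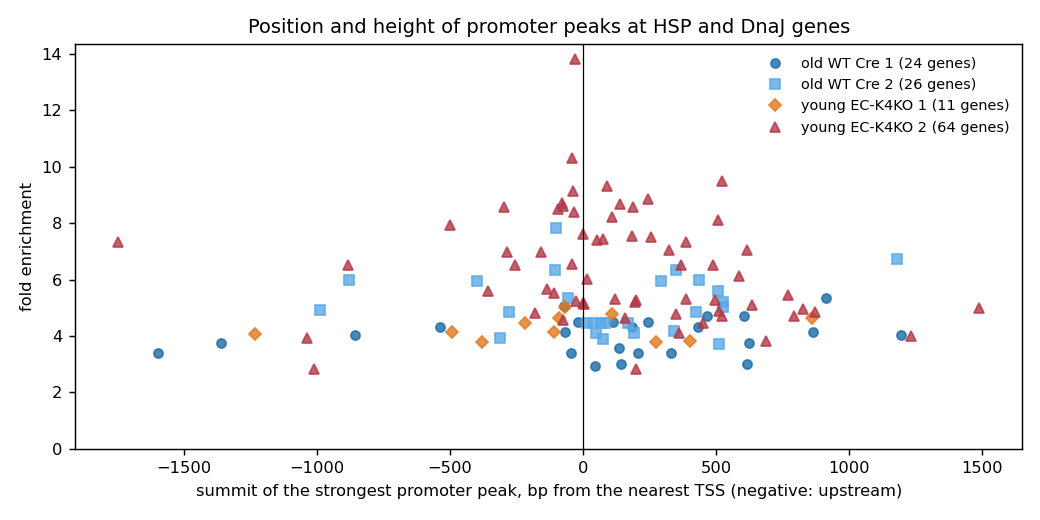
Fold enrichment (vertical axis) against the distance of the summit from the nearest TSS in bp (horizontal axis, negative upstream) for the strongest promoter peak of each HSP and DnaJ gene. Symbols give the 4 libraries. Most summits lie within 500 bp of a TSS, and the highest point, at 13.8, is Dnajc10 in young EC-K4KO 2, at -32 bp.

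In gene bodies the order was the opposite, and it depended on how the gene body was drawn. A gene body is the annotated gene outside 1500 bp of every TSS, and 67 of the 72 members have one. A gene-body peak was found in 26 members (38.8%) in old WT Cre 1, against 50.3% of all genes with a gene body. The count was 17 members (25.4%) in old WT Cre 2, against 35.4%. It was 14 members (20.9%) in young EC-K4KO 1, against 27.9%, and 48 members (71.6%) in young EC-K4KO 2, against 74.4%. Against the share reweighted to the members' gene-body lengths the differences were -9.48 and -6.52 points in old WT Cre 1 and 2 and -2.78 and -2.15 points in young EC-K4KO 1 and 2. Their mean was -5.23 ± 3.43 points (SD, n = 4). With the TSS windows narrowed to 500 bp the mean turned to 0.896 points through young EC-K4KO 2 alone, at 11.9 points, while the other libraries stayed at -4.05, -2.05 and -2.18 points. Over the whole gene, where promoter peaks count too, it turned to 5.94 points, with all 4 libraries above 0.

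Peak density in the members' gene bodies was close to that of all genes. Members held 3.67 and 1.31 peaks per 100 kb of gene body in old WT Cre 1 and 2 and 1.26 and 9.80 in young EC-K4KO 1 and 2. All protein-coding genes held 3.39, 1.56, 1.25 and 9.90. The lower share of members with a gene-body peak thus went with a ratio of densities between 0.838 and 1.08.

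Both old WT Cre libraries lay below both young EC-K4KO libraries in the gene-body share of the members against all genes. The mean was -8.00 ± 2.10 points in old WT Cre and -2.46 ± 0.447 points in young EC-K4KO (SD, n = 2 each). The difference of -5.54 points gave p = 0.3333 in the two-sided exact permutation test, the smallest value that 2 libraries against 2 allow. The separation depended on the peaks counted and on how the gene body was drawn. With a fold enrichment of at least 4 the difference was -0.0942 points and with a q-value of at most 1e-05 it was -0.352 points, and under both the groups overlapped (exact permutation test, p = 1.0 each). With lists of equal length it turned to 1.79 points. With TSS windows of 500 bp the difference was -7.89 points (exact permutation test, p = 0.6667) and over the whole gene it was -4.20 points (p = 1.0), and there too the groups overlapped.

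Gene-body peaks in all 4 libraries were found for 5 members (7.46%), against 17.0% of all genes and 11.9% after reweighting to the members' gene-body lengths. No library had one at 18 members (26.9%), against 20.9% of all genes and 21.4% after reweighting. The 5 were Dnajb6, Dnajc1, Dnajc25, Hspa12a and Hspa14. Hspa12a, with a gene body of 144887 bp, held 12 and 2 peaks in old WT Cre 1 and 2 and 4 and 17 in young EC-K4KO 1 and 2. Dnajb6 held 5, 1, 1 and 10 in the same order, and Dnajc1 held 2, 4, 2 and 12. Many of the 15 well known members were among the 18 without a gene-body peak, namely Hsp90aa1, Hsp90ab1, Hspa1a, Hspa1b, Hspa5, Hspb1, Hspd1, Hspe1, Dnaja1, Dnajb1 and Dnajb9. Their gene bodies are short, from 45 bp at Hspb1 to 12727 bp at Dnaja1.

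**Figure D5:**
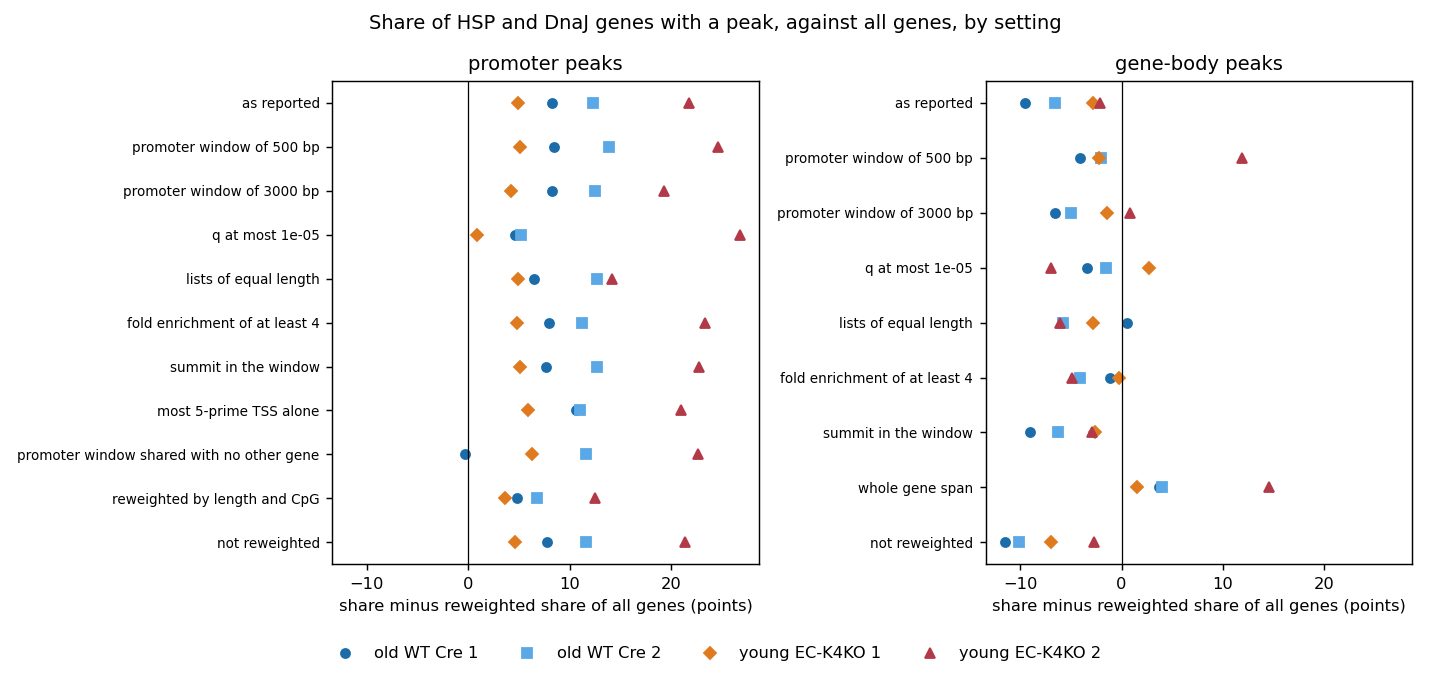
Share of HSP and DnaJ genes with a peak minus the reweighted share of all genes, in percentage points (horizontal axis), under each setting (vertical axis), for promoter peaks (left) and gene-body peaks (right). Symbols give the 4 libraries. Promoter differences stay above 0 except for old WT Cre 1 among genes that share no window (-0.288), while gene-body differences cross 0 under several settings.

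Motifs were searched on both strands of the RefSeq promoters (GRCm38.p6, 250 bases before to 50 after each start), which were matched for 58 of the 72 members and 16522 protein-coding genes in all. The 14 members without a match were Dnajc2, Dnajc5, Dnajc5b, Dnajc11, Dnajc12, Dnajc18, Dnajc22, Dnajc30, Hsp90aa1, Hsp90ab1, Hspa8, Hspa9, Hspa13 and Hspb2. A pair of heat shock element units, GAANNTTC or TTCNNGAA, occurred in 16 of 58 members (27.6%) and in 15.8% of all genes. A run of 3 adjoining units in alternating orientation occurred in 4 of the 58 members (6.90%), Dnajb6, Hspd1, Hspe1 and Hsph1, against 0.575% of all genes. The promoters of Hspd1 and Hspe1 overlap on opposite strands, so theirs are not separate matches. The ER stress element occurred in 3 members (5.17%), against 0.169%, and overlaps the CCAAT box by construction. CCAAT or ATTGG occurred in 25 members (43.1%), against 42.1%. A match is a run of letters and not a measured binding site.

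Members with a pair of heat shock element units had promoter peaks in 8 and 9 of 16 cases in old WT Cre 1 and 2 and in 3 and 15 of 16 in young EC-K4KO 1 and 2. Members matched without such a pair had them in 13, 14, 6 and 35 of 42. The shares with a pair were 50%, 56.2%, 18.8% and 93.8%, against 31%, 33.3%, 14.3% and 83.3% without it. Over all genes with the pair the shares were 25.2%, 22.2%, 11.2% and 63.1%, close to or below the 25.7%, 25.3%, 10.7% and 69.6% of genes without it. The higher share among members with the pair is a description of 16 genes, of which Hspd1 and Hspe1 share 1 promoter. The peaks were counted over the whole promoter window, which is wider than the 300 bases searched for the pair. On those 300 bases, 9, 11, 4 and 37 of the 58 matched members had a peak, in the order of the libraries. That count was not split by motif, so the shares above do not place a peak at a pair.

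Other genes of the chaperone and heat shock response system were counted in the same way. Of 40 listed regulators, co-chaperones, cytosolic chaperonin subunits and others, 39 are protein-coding in this annotation, and 13 had a promoter peak in each old WT Cre library, 6 in young EC-K4KO 1 and 31 in young EC-K4KO 2. The shares of 33.3%, 33.3%, 15.4% and 79.5% were each above the 25.6%, 24.5%, 10.6% and 67.5% of all genes, which are also the background of the counts that follow. The 5 regulators, Hsf1 and its relatives with Hsbp1, had a promoter peak in 0, 2, 0 and 5 cases in the order of the libraries. Of 8 listed subunits of the cytosolic chaperonin, which folds actin and tubulin, all but Cct6a were found, and these 7 had 3, 1, 4 and 6. The 23 co-chaperones had 9, 9, 2 and 17. Bag4, a nucleotide exchange factor of Hsp70, was the only listed gene with a promoter peak in all 4 libraries (2.56%, against 2.22% of all genes). Stub1, a ubiquitin ligase that acts with Hsp70, Fkbp4, a co-chaperone of Hsp90, and Serpinh1, the collagen chaperone, had none in any library (7.69%, against 25.4%).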

How the data were processed

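Pol II chromatin immunoprecipitation sequencing was analysed in 4 libraries of flow-sorted brain ECs, 2 from old WT Cre and 2 from young EC-K4KO mice. According to the methods of the study, chromatin was digested with MNase, reads were sequenced in pairs, trimmed, aligned to mm10 with Bowtie2 and freed of duplicates, and peaks were called with MACS2. Per the file headers the caller was MACS 2.2.7.1, run on each library separately, with fragment pairs, no control library and a q-value limit of 0.01. Every deposited peak has a position, a pileup (the coverage signal at its summit, counted in fragments), a fold enrichment (the ratio to a local background taken from the same library) and a p-value and a q-value as −log10. These deposited values were not normalised between libraries, so peaks were ranked within a library only. The narrow peak and summit lists repeat these peaks and were not used.

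Genes and TSSs were taken from the GENCODE M21 basic annotation on GRCm38, and genes were counted by gene ID. A peak was assigned to a promoter by overlap with the 1500 bp on either side of any TSS, and to the gene body by overlap with the rest of the gene. Shares over all protein-coding genes were reweighted to the members' deciles of gene length or gene-body length. The groups were set against each other in two-sided exact permutation tests over libraries. The members and gene lists were chosen with earlier results of these data known. Genes were named with their values if they had a promoter peak in all 4 libraries or in 1 group alone, or were among 15 well known members. Dnajc10, Hspa12b, Hspa4, Hspb2, Hspb6 and Dnajb7, and the genes of other lists with a peak in all 4 libraries or none, were also named, the first 6 after their values were seen, as were genes named for gene-body peaks, motifs or window uniqueness. Python 3.11.15, numpy 2.4.6, pandas 2.3.3 and scipy 1.17.1 were used, and the steps were tested on simulated peaks. The alternatives were other TSS windows, a q-value of at most 1e-05, a fold enrichment of at least 4, lists of equal length, summits alone, the most 5-prime TSS alone, unshared windows, reweighting by length and CpG or not at all, the whole gene, and leaving out each library. ATAC-seq and single-cell data were not analysed here.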

Additional observations from a re-analysis of the deposited data

How the results depend on the processing

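Of 26 alternative values of the old minus young differences, 23 kept their direction, though not their size, and 3 turned. Of 58 alternative values of the other comparisons, 44 stayed within the spread between libraries or, for counts, within 1.5 times, 12 moved further and 2 turned direction. Old minus young in the promoter difference turned from -3.10 to 0.0189 points with lists of equal length, was as low as -8.91 points with a q-value of at most 1e-05, and leaving out each library gave -11.5 to 5.35 points, the highest without young EC-K4KO 2. Old minus young in the gene-body difference turned from -5.54 to 1.79 points with lists of equal length, shrank to -0.0942 points with a fold enrichment of at least 4 and to -0.352 points with a q-value of at most 1e-05, and leaving out each library gave -7.02 to -4.05 points. The mean gene-body difference turned to 0.896 points with TSS windows of 500 bp, through young EC-K4KO 2 alone (11.9 points, with the others from -4.05 to -2.05), and to 5.94 points over the whole gene. No alternative could bring p below 0.3333. The mean promoter difference stayed above 0 under every alternative run, between 6.94 and 14.1 points.

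With a q-value of at most 1e-05, promoter peaks in both libraries of a group numbered 5 (old WT Cre) or 3 members (young EC-K4KO), with 0 in all 4 libraries. In old WT Cre the count was 6 with lists of equal length, 6 with a fold enrichment of at least 4, and 4 among unshared windows. In all 4 libraries it was 1, Hspa2, with that fold enrichment and 2, Hspa2 and Hspa9, among unshared windows. With single libraries left out, the counts ran from 24 to 26 for old WT Cre, 11 to 64 for young EC-K4KO and 4 to 11 over the libraries kept, the highest without young EC-K4KO 1. A group with a single library left gives that library's own count. Leaving a library out can only keep or raise such counts, so they do not test them. Some of the moved values counted above are of this kind. For the 17 genes named by the rule, 16 of 131 alternative values moved. The genes named after their values were seen were not rerun. The smallest pileup of a deposited peak was 7 to 13 fragments, and the library with the fewest fragments had the most peaks. The part of depth in these calls was not tested.

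The groups share replicate numbers. A replicate block cannot move a mean difference in this balanced design, so old minus young was again -3.10 points for promoters (exact paired test, p = 1.0) and -5.54 points for gene bodies (p = 0.50, the smallest that 2 pairs allow). The replicate 1 minus replicate 2 differences in promoter calls of both groups correlated at r = 0.028 over 21951 genes, which are not independent replicates. The peak lists differ widely in length, so this value cannot show whether libraries with the same number shared a batch, which was not tested.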
